A study of Mus musculus with 8 samples.

Results

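Eph receptors and ephrins were described across the libraries of the mTEC 3.10 line and of its *Aire* mutant clone. The 10 genes were listed by symbol, namely the EphA receptors *Epha1*, *Epha2*, *Epha4* and *Epha7*, the EphB receptors *Ephb2*, *Ephb3* and *Ephb4*, the ephrin-A ligand *Efna1* and the ephrin-B ligands *Efnb1* and *Efnb2*. They are 10 of the 24052 gene symbols in the count files and 10 of the 22 Eph and ephrin genes by nomenclature, which comprise 14 receptors and 8 ligands. The list was chosen by measured values of these libraries: *Epha7* was known to have no reads in the clone, and which values chose the 10 genes is not recorded. Values of the 10 genes are therefore descriptions, and calls were counted over the whole family of 22, 16 of which had enough counts to be tested.

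RNA-Seq was done on WT mTEC 3.10 cells, a medullary thymic epithelial line labelled as C57BL/6 at passage 2, and on clone E6, made from that line by Crispr-Cas9 editing of *Aire*. Each was collected alone (before adhesion) or after 12 h with 50 mouse thymocytes per mTEC, which were then washed off (after adhesion), in duplicate, which gives 8 libraries. The mutant is 1 clone, labelled Aire +/- although the study's methods describe a mutation in each allele, and so a difference from WT cannot be told apart from a difference of this clone. Culture lasted 24 h in the labels of WT after adhesion 2, E6 before adhesion 1 and E6 after adhesion 1, and 12 h in the remaining labels. They do not say that replicates came from separate cultures, so p-values measure only the spread between these libraries. The protocol text of the E6 libraries before adhesion mentions co-culture, against their titles, which were followed here.

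Between 13506610 and 20145154 counts fell on genes in each library. Replicate 1 of WT after adhesion stood apart, with 66.7% of its alignments on genes against 75.7% to 78.8% elsewhere. The deviation of its log2 scaled counts from each gene's mean over the 8 libraries was set against GC content. The slope was -0.46 per 10% of GC, against -0.01 to 0.15 in the others. For E6 against WT and for adhesion in WT, values without this library are given where its removal turned a direction. Some other values that its removal moved are given too. *Aire* had 0 to 3 counts in each library of either cell type, so the edited gene could not check the labels at this depth. Most epithelial markers were high, with *Epcam* at 537 to 643 CPM (counts divided by TMM-scaled library size). *Krt5* stayed at or under 1.02 CPM, *Krt19* at or under 3.24 CPM and *Cldn3* at or under 0.119 CPM. The medullary markers *Fezf2*, *Cd80* and *Cd40* were at or near 0. *Foxn1*, *Pax1* and *Pax9* were present, and the cortical markers *Psmb11* and *Enpep* had 0 counts in the 8 libraries. Other cortical markers had reads, *Ctsl* at 355 to 545 CPM and *Ly75* at 17.7 to 31.7 CPM among them, and the 7 cortical markers summed to 395 to 571 CPM against 189 to 268 CPM for the 12 medullary ones. Each sum was mostly a single gene, *Ctsl* in the cortical list and *Pax1* (132 to 209 CPM) in the medullary list. The sums therefore do not tell cortical from medullary cells. A set of 16 thymocyte markers summed to 0.268 to 0.971 CPM before adhesion, to 13.2 and 16.8 CPM in WT after adhesion and to 92.6 and 113 CPM in E6 after adhesion.

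Eph receptors are receptor tyrosine kinases that bind ephrins on the surface of a neighbouring cell, so that a signal can run into the receptor cell and back into the ligand cell. EphA receptors mainly bind ephrin-A ligands, which are held by a lipid anchor, and EphB receptors mainly bind ephrin-B ligands, which span the membrane. The family is known for sorting cells at tissue borders and for repulsion or adhesion at contacts, and in the thymus EphB receptors and ephrin-B ligands take part in building the epithelial network and in its contacts with thymocytes.

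The 250 bases before the RefSeq start of 4 genes are shown, since WT and E6 differed most at the first pair within the family and the second pair are the most highly expressed receptor and ligand of the family. They come from the RefSeq promoter table on GRCm38.p6, which held all 10 listed genes and 21 of the 22 family genes. The first is *Epha7* (chr4:28812881-28813130, plus strand), followed by the ligand gene *Efna2* (chr10:80179232-80179481, plus strand), which is in the family but not among the 10. The others are *Epha2* (chr4:141300971-141301220, plus strand) and *Efnb2* (chr8:8661243-8661492, minus strand). Capitals mark GC boxes (GGGCGG) and CCAAT boxes (CCAAT) on either strand.
Epha7: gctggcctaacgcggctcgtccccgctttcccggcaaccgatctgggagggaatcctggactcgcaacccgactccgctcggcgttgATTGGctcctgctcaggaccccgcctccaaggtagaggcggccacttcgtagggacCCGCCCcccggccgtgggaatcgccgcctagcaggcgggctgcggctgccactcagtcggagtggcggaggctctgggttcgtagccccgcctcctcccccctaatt
Efna2: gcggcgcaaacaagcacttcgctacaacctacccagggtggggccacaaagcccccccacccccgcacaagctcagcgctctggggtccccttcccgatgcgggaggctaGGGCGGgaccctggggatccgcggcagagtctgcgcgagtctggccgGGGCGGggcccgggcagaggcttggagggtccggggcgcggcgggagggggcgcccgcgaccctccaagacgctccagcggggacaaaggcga
Epha2: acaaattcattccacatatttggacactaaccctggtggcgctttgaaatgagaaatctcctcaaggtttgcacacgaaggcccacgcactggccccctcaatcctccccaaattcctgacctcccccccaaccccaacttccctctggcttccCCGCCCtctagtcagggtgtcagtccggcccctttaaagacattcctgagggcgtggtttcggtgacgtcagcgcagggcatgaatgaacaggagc
Efnb2: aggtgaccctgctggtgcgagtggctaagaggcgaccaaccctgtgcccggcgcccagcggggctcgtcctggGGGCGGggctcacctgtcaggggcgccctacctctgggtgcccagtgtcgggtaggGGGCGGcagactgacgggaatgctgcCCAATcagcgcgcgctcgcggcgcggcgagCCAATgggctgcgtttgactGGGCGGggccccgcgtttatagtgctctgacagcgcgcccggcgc

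The *Epha7* and *Efna2* stretches held 25 CpG each, *Efnb2* held 27 and *Epha2* held 9, against a median of 6 over all 27025 promoters of the table. Of the 10 listed genes, 8 had a GC box and 6 a CCAAT box, which 32.9% and 34.5% of all promoters hold. On either strand, TATAAA was found in 1 of the 10, that of *Efnb2* (printed as TTTATA), and in 12.97% of all promoters. The letters CACGTG (6.05% of all) and TGANTCA (6.87% of all) were in none of the 10 stretches. A GC box stood both before *Epha7*, which had no reads in E6, and before *Epha2*, which had more reads in E6 than in WT. These matches describe the letters only.

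*Epha2* was the most abundant gene of the family per transcript length, in all 8 libraries. Its level was 83.7 ± 9.74 CPM per kb (SD, n = 8), and *Efnb2*, the ephrin that binds EphB4 with high affinity, followed at 28.2 ± 2.03 CPM per kb. *Ephb4* (20.2 ± 2.67), *Epha1* (20.2 ± 3.23) and *Efna1* (19.3 ± 3.39) came next and overlapped with each other. These 5 genes made up the upper part of the order, and none of the remaining genes reached their range.

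The middle of the order was *Ephb3* at 9.62 ± 1.65 CPM per kb and *Epha4* at 8.64 ± 1.38, whose ranges overlapped with each other and with that of *Efna5* (7.43 ± 0.808). *Efna4* (4.04 ± 0.830), *Efnb1* (3.42 ± 0.349) and *Ephb2* (2.94 ± 0.343) overlapped in neighbouring pairs. The *Ephb2* level rests on a longest coding transcript of 10.9 kb and would be higher with a shorter one. At the lower end, *Efna3* (1.53), *Efnb3* (1.08), *Ephb6* (0.899), *Epha7* (0.387) and *Efna2* (0.217) each overlapped with the next. Of the rest, *Epha3*, *Epha5*, *Epha6*, *Epha8* and *Epha10* had 0 counts in the 8 libraries and *Ephb1* had 1 count in all. The expressed family therefore held EphA and EphB receptors together with both ligand classes in the same cultures.

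**Figure D1:**
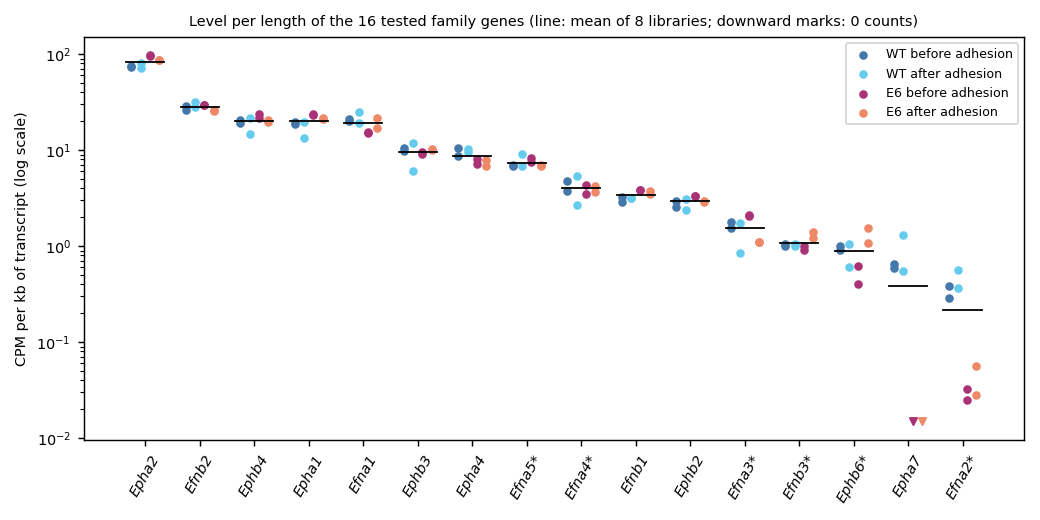
Level per transcript length (CPM per kb, log axis) of the 16 tested family genes, 1 point per library coloured by condition, with the mean of 8 libraries as a line and 0 counts as downward marks; an asterisk marks genes that are not among the 10. *Epha2* lies above the rest at 83.7 CPM per kb, and only *Epha7* and *Efna2* show E6 libraries far below the WT libraries.

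Summed over their genes, EphA receptors reached 103.9 ± 1.36 CPM per kb in WT and 122 ± 6.68 in E6 (SD, n = 4 each), with the 4 E6 libraries above the 4 WT libraries. *Epha2* alone supplied 51.6% to 62.2% of the sum of all EphA and EphB receptors of a library, so the EphA sum mostly reads that gene. The sums of EphB receptors, ephrin-A ligands and ephrin-B ligands overlapped between the cell types. *Efnb2* supplied 39.1% to 46.6% of the ligand sum. The receptor sum was 2.02 ± 0.127 times the ligand sum in WT and 2.498 ± 0.125 times in E6, without overlap between the libraries.

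The comparison of E6 with WT asks which genes differ in the *Aire* mutant clone. In the fit averaged over adhesion, 2 of the 16 tested family genes were DE (FDR under 0.05 and FC of at least 1.5), and both, *Epha7* and *Efna2*, were lower in E6. Of all 11672 tested mRNAs, 11.3% were DE, with 6.13% of all lower in E6. The same 2 genes were DE before adhesion, where 5.01% of all mRNAs were (2.56% lower), and after adhesion, where 8.91% were (4.06% lower). *Epha7* was listed with its lack of reads in E6 known. Both genes passed the filter on low counts through their WT libraries, so the count is a description and nothing is read from it. The median log2 FC of the 10 listed genes was 0.10 averaged, 0.14 before and 0.12 after adhesion, against -0.01, -0.0014 and -0.02 over all tested mRNAs. All 10 passed that filter.

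*Epha7*, a receptor known from repulsion of axons and from neural tube closure, is on chromosome 4 from 28813131 to 28967499 on the plus strand of GRCm38. It had 66 and 59 counts in WT before adhesion, 124 and 77 in WT after adhesion, and 0 in each of the 4 libraries of E6. In CPM these were 4.01, 4.35, 8.79 and 3.72 in WT, so the single high value belonged to replicate 1 of WT after adhesion. The 4 WT libraries and the 4 E6 libraries did not overlap. Set against a floor of 3 counts per library, which is 0.161 to 0.208 CPM in E6 and covers counting error only, *Epha7* was at least 28.7-fold lower in E6, at least 22.7-fold before and at least 34.9-fold after adhesion. Without replicate 1 of WT after adhesion these bounds were 22.1-fold averaged and 20.8-fold after adhesion. *Epha7* was listed with this difference known, so its call adds nothing to the counts. Before adhesion the call was lost without any 1 of the 4 libraries compared, and after adhesion without either E6 library and in a fit of only the 4 libraries compared. An antisense gene, *Gm11915*, lies within *Epha7* from 28814297 to 28815076, and without the strand setting of the counting reads of the 2 cannot be told apart. In bulk samples, fewer cells with a transcript and less RNA per cell cannot be told apart, so the WT level may be that of few cells or of many.

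The genes around *Epha7* were read in the same libraries (neighbouring listed protein-coding genes, 4 on each side). The region is sparse, and the nearest of them start 2.49 Mb before and 3.15 Mb after *Epha7*. *Manea* had a log2 FC of -0.49 and *Ufl1* of -0.41 on 1 side, and *Map3k7* of -0.07, *Bach2* of -0.66 and *Casp8ap2* of -0.32 on the other. None of these 5 was DE by edgeR's quasi-likelihood test (Benjamini-Hochberg FDR 0.0964 for *Ufl1*, 0.0678 for *Manea*, 0.791 for *Map3k7*, 0.0511 for *Bach2* and 0.146 for *Casp8ap2*). *Fhl5*, *Fut9* and *Gja10* had 0 counts in the 8 libraries. The 5 genes with reads thus kept reads in E6 while *Epha7* had none. The median log2 FC was -0.13 over 15 tested genes within 5 Mb of *Epha7* and -0.01 over 724 others of chromosome 4.

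**Figure D2:**
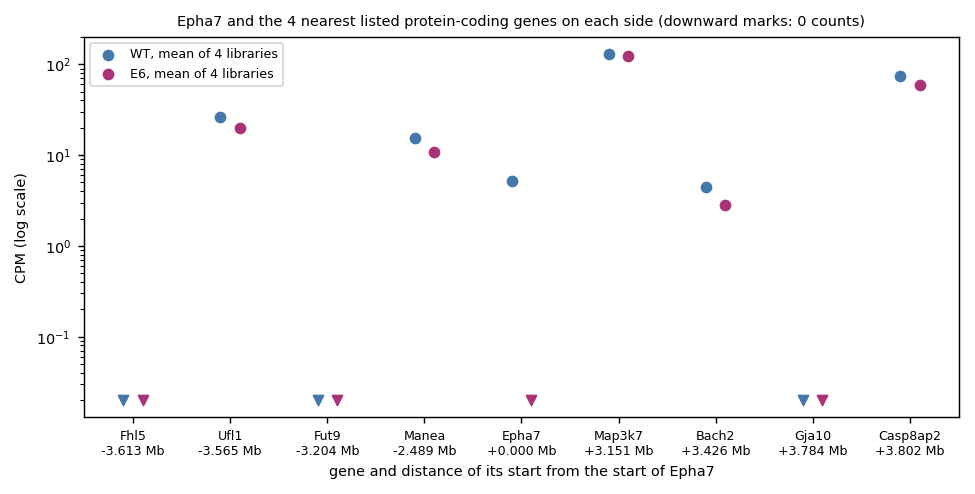
Mean level (CPM, log axis, n = 4 libraries per cell type) of *Epha7* and of its 4 nearest listed protein-coding genes on each side, in order along the chromosome and not to scale, with the distance between gene starts in Mb; downward marks are 0 counts. *Epha7* has a mean of 5.22 CPM in WT and 0 in E6, while *Ufl1*, *Manea*, *Map3k7*, *Bach2* and *Casp8ap2* have reads in both.

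The other 3 EphA receptors differed less. *Epha2*, the main EphA receptor of many epithelia (chromosome 4, 141301240 to 141329384, plus strand), had 290 and 296 CPM in WT before adhesion and 313 and 282 after it, against 382 and 373 in E6 before and 341 and 343 after adhesion. Each E6 library was above each WT library. The log2 FC was 0.28 (SE 0.08, 95% interval 0.10 to 0.46), which is 1.22-fold and under the FC limit, with an FDR under the limit in the all-gene fit. It was 0.15 when each library was corrected for GC content, and after adhesion it went from 0.20 to -0.01 with that correction.

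*Epha4* (chromosome 1, 77367185 to 77515088, minus strand) is a receptor of the family that binds ligands of both classes. It had 66.2 and 55.0 CPM in WT before and 65.1 and 60.9 after adhesion, against 45.5 and 51.0 in E6 before and 43.1 and 50.5 after adhesion. Each E6 library was below each WT library. The log2 FC was -0.38 (SE 0.10, 95% interval -0.62 to -0.14), again within the FDR limit and short of the FC limit, and it lay between -0.44 and -0.31 under the 15 alternatives.

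*Epha1* (chromosome 6, 42358487 to 42373268, minus strand), a receptor with a mainly epithelial expression, had 61.1 and 64.2 CPM in WT before and 44.2 and 64.3 after adhesion. In E6 it had 77.9 and 76.1 CPM before and 70.1 and 69.7 after adhesion, so the 2 cell types did not overlap. The log2 FC was 0.33 (SE 0.12, 95% interval 0.05 to 0.61) and did not meet the FDR limit. Without replicate 1 of WT after adhesion it was 0.22, and without replicate 2 of that condition 0.49. After adhesion it went from 0.36 to 0.15 without replicate 1, and to 0.69, past both limits, without replicate 2. The last bases of *Epha1* overlap with those of *Zyx* on the other strand, from 42358487 to 42360213, and *Zyx* had 2333 to 4441 counts, so reads there cannot be told apart without knowing whether strand was used in counting.

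None of the EphB receptors met either limit in the averaged comparison. *Ephb2*, which with *Ephb3* positions cells along intestinal crypts (chromosome 4, 136647539 to 136835988, minus strand), had 27.8, 32.3, 25.9 and 34.0 CPM in WT and 36.1, 36.6, 32.6 and 31.5 in E6, in the order before 1, before 2, after 1 and after 2. The cell types overlapped, with a log2 FC of 0.18 (SE 0.11, 95% interval -0.08 to 0.45). Without replicate 1 of WT after adhesion it was 0.11. *Ephb3* (chromosome 16, 21204755 to 21223305, plus strand) had 46.1, 49.6, 28.7 and 56.2 CPM in WT and 45.6, 43.4, 48.4 and 47.7 in E6, in the same order. Its lowest and its highest value were the 2 libraries of WT after adhesion.

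The log2 FC of *Ephb3* was 0.04 (SE 0.19, 95% interval -0.41 to 0.48). It was -0.15 without replicate 1 of WT after adhesion and 0.33 without replicate 2. *Ephb4*, the receptor paired with ephrin-B2 between veins and arteries (chromosome 5, 137350109 to 137378669, plus strand), had 82.3, 89.7, 63.4 and 94.7 CPM in WT and 102.6, 93.5, 90.4 and 85.6 in E6. The cell types overlapped, with a log2 FC of 0.17 (SE 0.13, 95% interval -0.14 to 0.48). Without replicate 1 of WT after adhesion it was 0.06. The other tested mRNAs of its chromosome had a median log2 FC of 0.33 over 753 genes, above that of *Ephb4* itself.

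Among the listed ligands, *Efnb1* was above WT in each E6 library and *Efna1* and *Efnb2* overlapped with it. *Efna1* (chromosome 3, 89271733 to 89281142, minus strand), the ligand that binds EphA2 with high affinity, had 34.1, 32.9, 31.1 and 40.9 CPM in WT and 24.97, 24.85, 27.8 and 35.7 in E6. The log2 FC was -0.31 (SE 0.13, 95% interval -0.60 to -0.01), which did not meet either limit. *Efnb1*, an X-linked ligand needed in craniofacial development (99136130 to 99148991, plus strand), had 9.47, 10.7, 10.4 and 10.3 CPM in WT and 12.4, 12.5, 12.2 and 11.3 in E6. Its log2 FC of 0.25 (SE 0.10, 95% interval 0.00 to 0.49) did not meet either limit, and it was 0.12 with the GC correction. *Efnb2* (chromosome 8, 8617434 to 8661242, minus strand) had 138, 125, 152 and 134 CPM in WT and 141, 140, 124 and 127 in E6, a log2 FC of -0.05 (SE 0.08, 95% interval -0.24 to 0.14). The highest and the second lowest of its levels were those of WT, so the cell types overlapped.

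In all, 5 of the 10 listed genes did not overlap between the 4 WT and the 4 E6 libraries, *Epha1*, *Epha2* and *Efnb1* above WT and *Epha4* and *Epha7* below it. Over all tested mRNAs this was true of 31.2%. Apart from *Epha7*, the 9 genes had ratios of E6 to WT from 0.769 to 1.26, and their 95% intervals ran from 0.652 to 1.53. Before adhesion alone, all 10 did not overlap between 2 and 2 libraries, as 70.9% of all tested mRNAs did not. After adhesion alone 6 of the 10 did not overlap, *Epha1*, *Epha2* and *Efnb1* above WT and *Epha4*, *Epha7* and *Efnb2* below it, against 52.1% of all. Thymocyte markers summed to a mean of 15.0 CPM in WT and 103 CPM in E6 after adhesion. The part of thymocyte reads in the cell type comparisons after adhesion and averaged was not tested. Without replicate 1 of WT after adhesion, the averaged log2 FC of *Efnb2* went from -0.05 to 0.01, and after adhesion that of *Ephb2* went from 0.09 to -0.06, that of *Ephb3* from 0.17 to -0.19 and that of *Ephb4* from 0.15 to -0.07.

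**Figure D3:**
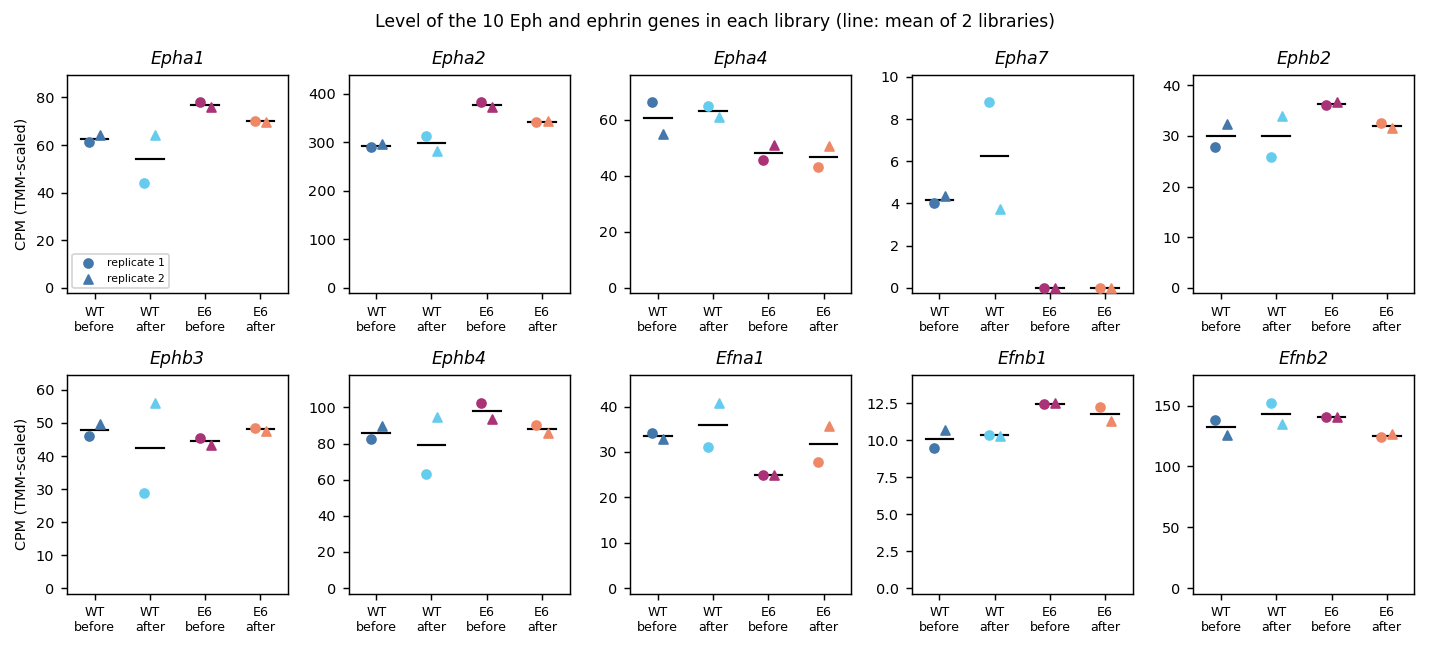
Level (CPM on TMM-scaled library sizes, linear axes from 0, scale differs by panel) of the 10 listed genes in each of the 8 libraries, circles for replicate 1, triangles for replicate 2 and a line at the mean of each pair. *Epha7* is at 0 in the 4 E6 libraries, and in *Epha1*, *Ephb2*, *Ephb3* and *Ephb4* replicate 1 of WT after adhesion is the lowest of the 8.

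Of the 6 tested family genes outside the list, *Efna2*, a lipid-anchored ligand (chromosome 10, 80179482 to 80190010, plus strand), was DE. It had 10, 11, 17 and 16 counts in WT and 1, 1, 2 and 1 in E6, and so passed the filter on low counts through WT. The ratio of the summed counts, 54 against 5, was 11.1 after scaling, with an exact 95% interval of 4.47 to 35.5 for counting error only. The log2 FC was -3.36 (SE 0.46), with a Benjamini-Hochberg FDR of 0.00376 in the edgeR quasi-likelihood fit, and the call held under 15 of 15 alternatives averaged, 4 of 15 before and 9 of 16 after adhesion. Over chromosome 10 the median log2 FC of 539 other tested genes was -0.37, and it was -0.28 over the 152 within 5 Mb of *Efna2*. Of the 7 tested neighbours of *Efna2* (4 listed protein-coding genes on each side) *Midn* was DE, with a log2 FC of -0.63. The paper places the edited *Aire* target on this same chromosome, within 5 Mb of *Efna2*. Whether the edit acted on *Efna2* through its place on the chromosome was not tested. The other 6, *Atp5d*, *Cirbp*, *1600002K03Rik*, *Mum1*, *Ndufs7* and *Dazap1*, were not DE, with log2 FCs from -0.52 to -0.11. *Efna3*, *Efna4*, *Efna5*, *Efnb3* and *Ephb6* had averaged log2 FCs between -0.13 and 0.14 and were not DE.

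The comparison of libraries after and before adhesion asks what contact with thymocytes changes. No family gene was DE in WT, in E6 or averaged over both by edgeR's quasi-likelihood test, and none by DESeq2. At an unadjusted p under 0.05, edgeR found 0 of the 16 in WT, 2 in E6 and 2 averaged, where 7.48%, 6.97% and 9.89% of all tested mRNAs passed. Of all tested mRNAs, 0% were DE in WT, 2% in E6 and 1.89% averaged. Thymocyte markers were higher after adhesion in both cell types, as given above, so a level after adhesion can hold reads of thymocytes that stayed, and their part was not tested.

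For the 9 listed genes other than *Epha7*, the ratio of after to before adhesion was 0.868 to 1.09 in WT, with 95% intervals from 0.573 to 1.43. Without replicate 1 of WT after adhesion the ratios in WT were 0.960 to 1.22, and the log2 FC went from -0.20 to 0.03 for *Epha1*, from 0.02 to -0.06 for *Epha2*, from 0.05 to -0.0015 for *Epha4*, from -0.0024 to 0.18 for *Ephb2*, from -0.12 to 0.14 for *Ephb4* and from 0.11 to 0.28 for *Efna1*. In E6 the ratio was 0.880 to 1.28, with intervals from 0.665 to 1.70. No interval reached a 2-fold change in either direction, though all of them leave room for smaller ones. The furthest from 1 in E6 was *Efna1*, with 24.97 and 24.85 CPM before and 27.8 and 35.7 after adhesion, a log2 FC of 0.35 (SE 0.18, 95% interval -0.07 to 0.77). In E6, 8 of the 10 did not overlap between 2 and 2 libraries, *Ephb3* and *Efna1* above and *Epha1*, *Epha2*, *Ephb2*, *Ephb4*, *Efnb1* and *Efnb2* below the libraries before adhesion, against 55.2% of all tested mRNAs. In WT this was true of 0 of the 10 and of 31.1% of all, and over 4 against 4 libraries of 0 of the 10 and 5.52% of all.

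*Epha7* could be compared over adhesion in WT alone, where its log2 FC was 0.56 (SE 0.45, 95% interval -0.57 to 1.70). It was -0.17 without replicate 1 of WT after adhesion, and past both limits without replicate 2, so its direction rested on those 2 libraries. The same held for *Ephb3*, at -0.17 with both, 0.23 without replicate 1 and -0.75 without replicate 2. The replicates of WT after adhesion differed most, among the listed genes, at *Epha7* and *Ephb3*. The level in replicate 1 was 2.36 times that in replicate 2 for *Epha7*, whose longest coding transcript has 41.7% GC, and 0.510 times for *Ephb3*, with 57.0% GC. *Ephb4*, with 58.4% GC, stood at 0.670 and *Epha1*, with 55.2%, at 0.687, but *Epha4*, with 45.6%, stood at 1.07, *Efnb1*, with 58.2%, at 1.01 and *Epha2*, with 56.9%, at 1.11. With the GC correction the log2 FC over adhesion in WT was 0.35 for *Epha7* and -0.06 for *Ephb3*.

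**Figure D4:**
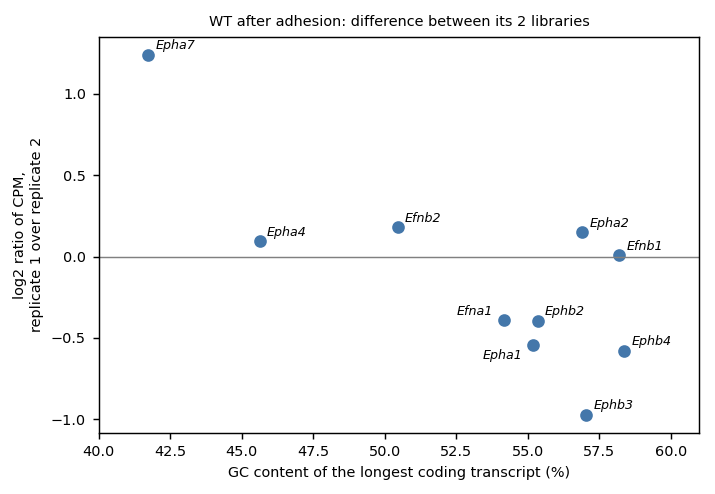
Ratio of the level in replicate 1 to that in replicate 2 of WT after adhesion (log2 scale, y axis) against the GC content of the longest coding transcript (%, x axis) for the 10 listed genes, 1 point per gene. *Epha7* is the highest at a ratio of 2.36 and *Ephb3* the lowest at 0.510.

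The difference of the adhesion effects between E6 and WT asks whether the clone responds to thymocytes in another way. It was DE for 0 of the 16 family genes by edgeR's quasi-likelihood test and for 0 by DESeq2, with 1 at an unadjusted p under 0.05 in each. Of all tested mRNAs 0% were DE by edgeR and 2.54% had such a p. For the 9 listed genes other than *Epha7* the log2 differences ran from -0.29 to 0.28. The gene with the unadjusted p was *Ephb6*, a receptor without kinase activity that T cells also express. It had 3.40, 3.76, 2.27 and 3.92 CPM in WT and 2.36, 1.4995, 5.80 and 4.06 in E6, in the order before 1, before 2, after 1 and after 2. In E6 the libraries after adhesion were above those before it, with a log2 FC of 1.37 (SE 0.36, edgeR Benjamini-Hochberg FDR 0.186), and the difference from WT was 1.55 (FDR 0.988). The summed level of the 16 thymocyte markers was also higher after adhesion. In E6 each of them but *Ptcra* was higher in both libraries after adhesion than in either before it. *Dntt*, for example, went from 0 to 18.7 and 13.4 CPM, while *Ptcra* was at 0 to 0.208 CPM before and 0.0597 and 0.120 CPM after adhesion. The part of thymocyte reads in the level of *Ephb6* was not tested. The other gene under 0.05 in E6 was *Efna3*, with 4.85 and 4.98 CPM before and 2.63 and 2.63 after adhesion, a log2 FC of -0.90 (edgeR Benjamini-Hochberg FDR 0.528).

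**Figure D5:**
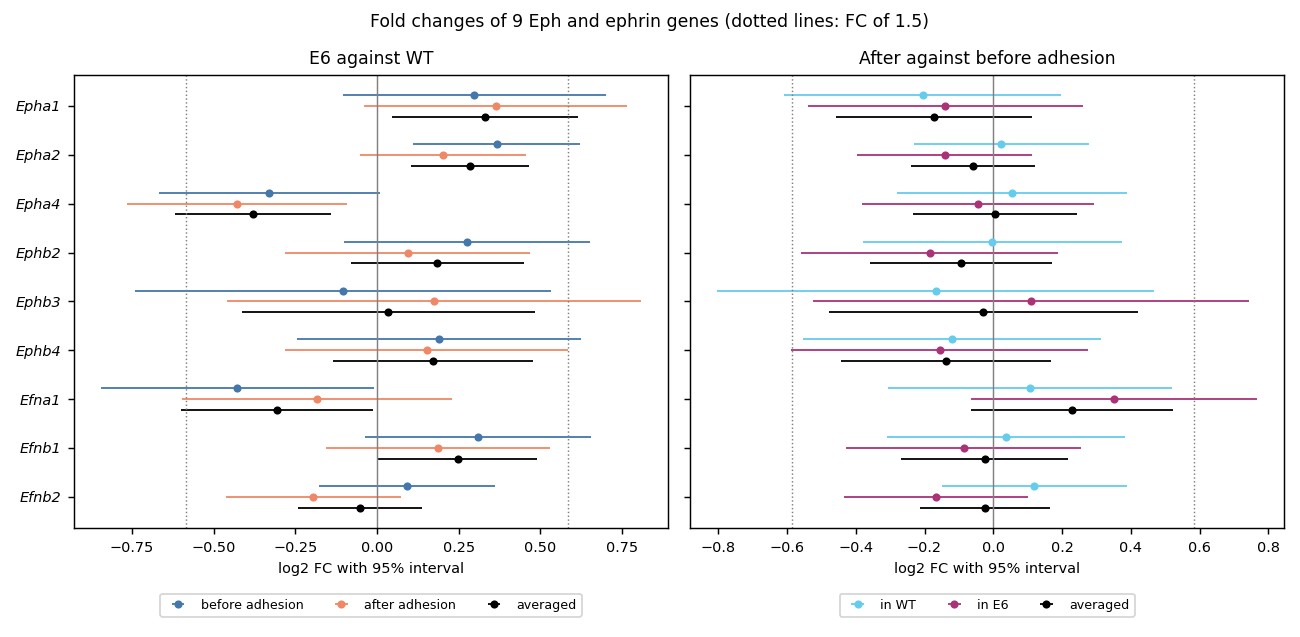
Log2 FC with its 95% interval for 9 of the 10 listed genes, E6 against WT on the left and after against before adhesion on the right, with dotted lines at an FC of 1.5; *Epha7* is left out because its E6 libraries are at 0. The averaged differences between the cell types lie between -0.38 and 0.33, and no point passes a dotted line.

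Proteins that carry Eph and ephrin signals inside the cell were read from a list of 53 genes, 45 of which were tested. In E6 against WT averaged over adhesion, 5 were DE and higher and 2 DE and lower, or 15.6% against 11.3% of all mRNAs. *Ngef*, among the 5, passed the filter on low counts through E6, so nothing is read from this share. Among the roles described here, 1 of 14 adaptors and kinases was higher and 1 lower, 1 of 4 phosphatases and 1 of 4 cytoplasmic partners of ephrin-B were higher, and none of 9 genes of shedding and turnover was DE. Before adhesion 1 was higher and 2 lower, and after adhesion 2 were higher and 2 lower, or 6.67% and 8.89% of the 45 against 5.01% and 8.91% of all mRNAs. None was DE in a contrast of adhesion by edgeR's quasi-likelihood test.

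The largest rise was that of *Ngef* (ephexin), which binds EphA4. It had few reads, 6, 4, 0 and 3 counts in WT and 13, 11, 8 and 14 in E6, and so passed the filter on low counts through E6. Its log2 FC of 1.98 (SE 0.53, edgeR Benjamini-Hochberg FDR 0.0372) is therefore a description. *Ptpn11*, the phosphatase SHP2, rose from 222 ± 17.3 to 376 ± 8.59 CPM (SD, n = 4). Its log2 FC was 0.76 (SE 0.08, edgeR Benjamini-Hochberg FDR 0.00139). *Src*, a kinase that acts below Eph receptors and ephrins, rose from 106 ± 24.4 to 173 ± 3.17 CPM and *Ptpn13*, a phosphatase that acts on ephrin-B tails, from 34.0 ± 1.12 to 55.0 ± 6.50 CPM. In each of these 4 genes the 4 E6 libraries lay above the 4 WT libraries. The lowest WT level of *Src*, 71.2 CPM, was that of replicate 1 of WT after adhesion, against 112 to 128 CPM in the other WT libraries. Partner calls were not read without that library or under the other alternatives.

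The genes that fell were *Chn1*, alpha-chimaerin, which acts below EphA4, and *Fyn*, a kinase of the Src family. *Chn1* went from 2.22 ± 0.376 to 0.561 ± 0.171 CPM, with -2.02 as its log2 FC (SE 0.25, edgeR Benjamini-Hochberg FDR 0.00271). *Fyn* went from 38.3 ± 3.53 to 22.3 ± 1.89 CPM, with -0.78 as its log2 FC (SE 0.10, edgeR Benjamini-Hochberg FDR 0.00271). Thus *Src* and *Fyn*, kinases of 1 family, differed in opposite directions.

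The 3 tested mRNAs whose log2 CPM was most like that of *Epha7* over the 8 libraries were *Ube4b*, *Timp3* and *Nfe2l2*, with Pearson's r of 0.998, 0.997 and 0.9965. For *Epha4* they were *Ddx52* (0.965), *Hace1* (0.96) and *Txnrd3* (0.959), and for *Epha1* they were *Tnfrsf12a* (0.999), *Dcaf15* (0.998) and *Aldh2* (0.998). The points share libraries and depth, and 258 of 10292 mRNAs had an r above 0.95 with *Epha7*, 8 with *Epha4* and 422 with *Epha1*. The lowest level of *Epha1*, 44.2 CPM, was that of replicate 1 of WT after adhesion, the library with the unlike GC slope. Its part in these r values was not tested. *Timp3* differed most between the cell types among the 3 nearest to *Epha7*, with a mean of 356.5 CPM in WT and 9.46 in E6, while *Ube4b* had 162 and 110.0 and *Nfe2l2* 224 and 181. A like order of libraries thus went with differences of unlike size.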

How the data were processed

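The authors aligned the reads to mm10 (GRCm38) with STAR 2.5.0a and deposited, for each library, the HTSeq count of reads on each gene symbol, without normalization; the submitters' notes also name DESeq2. The annotation and the strand setting of the counting are not given in the sources used here. Rows that name no gene (21.2% to 33.3% of alignments) were left out. In 1 library 18 symbols that had become dates were restored from the gene order. Groups followed the titles and source names. Counts were fitted with edgeR 4.0.16 in R 4.3.3 (filterByExpr, TMM, quasi-likelihood, 1 mean per condition over 8 libraries). DE meant a Benjamini-Hochberg FDR under 0.05 over 11672 tested genes and an FC of at least 1.5. SEs were derived from the log2 FC and the F statistic and are rough where counts are few. Of 24052 symbols, 15836 had a count. Depth was 13506610 to 20145154 counts per library, and intervals of counts cover counting error only.

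Levels are CPM on TMM-scaled library sizes, and per kb of the longest coding transcript of GENCODE vM21 on GRCm38. Promoter stretches came from RefSeq (GRCm38.p6). The 10 genes and the lists of partners and markers were chosen with earlier results of these data known. The text names the 10 genes, the other family genes, at most 4 rises and 4 falls among DE partners, and the 3 genes most like each of the 3 listed genes with the largest log2 FC. Of 26 listed thymocyte markers, 16 were used and the others were not analysed here. The counts of 1 role of the partner list are not reported here. Alternatives were RLE size factors, DESeq2 1.42.0, no filter on low counts, no FC limit, the replicate block, a GC correction (lowess, span 0.3, limma 3.58.1) alone or with the block, culture hours as a covariate, only the 4 libraries compared, and each library left out. The fit was tested on simulated counts. Python 3.11.15 with pandas 2.3.3, numpy 2.4.6, scipy 1.17.1 and matplotlib 3.10.9 was used for the rest.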

Additional observations from a re-analysis of the deposited data

How the results depend on the processing

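The number of DE family genes moved by over 1.5 times in 27 of 116 recomputed counts. Each setting moved at least 1 of them except RLE size factors and the GC correction alone, which moved 0. Averaged over adhesion it was 2, and 4 without the FC limit, which added *Epha2* and *Epha4*. For E6 against WT before adhesion it went from 2 to 1 with DESeq2, with no filter on low counts, with the replicate block, with the GC correction and replicate block together, and with culture hours as a covariate, in each case through the loss of *Efna2*. After adhesion it went from 2 to 0 in a fit of only the 4 libraries compared, and for adhesion in E6 from 0 to 2 (*Efna3* and *Ephb6*). Leaving out single libraries gave 0 to 3 before adhesion, 0 to 5 after adhesion, 0 to 4 for adhesion in WT, 0 to 2 for adhesion in E6, 0 to 1 for adhesion averaged, and 0 to 2 for the difference of the adhesion effects. The 5, reached without replicate 2 of WT after adhesion, were *Efna2*, *Epha1*, *Epha7*, *Ephb3* and *Ephb6*, and the 4, without the same library, *Efna3*, *Efna4*, *Epha7* and *Ephb3*. Without either library of WT after adhesion, *Ephb6* joined *Efna2* and *Epha7* before adhesion. Without either library of WT after adhesion, *Efna3* and *Ephb6* were DE for adhesion in E6, and averaged over both cell types 1 was, *Ephb6* without replicate 1 and *Efna3* without replicate 2. Without replicate 2, *Ephb3* and *Ephb6* were DE for the difference. The causes were not tested. Of 1089 log2 FCs of the 10 genes under the alternatives, 71 moved by more than 1 SD between replicates, 38 of them without a library of WT after adhesion and 20 with a GC correction, and 0 called values reversed. Same-numbered libraries deviated together with r = 0.187 between WT before and after adhesion and with -0.056 to 0.024 between the other conditions, across 10292 genes, so the numbers were not taken as pairs, and the replicate block moved no other count. With 2 libraries per condition, *Efna2* at 1 or 2 counts in E6 and *Epha7* at 0 are limited by depth.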
